A study of Homo sapiens with 10 samples.

Results

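The comparison set the hormone 1,25(OH)2D3 against its precursor 25(OH)D3, secosteroids that differ only by the hydroxyl group at C1α, in WM164 cells, an established human melanoma line. Its members were the 4 libraries treated with either compound, of 10 libraries in all, with 1 library of each compound in each of the 2 genotypes. The genotypes are VDR-KD, which the labels call a knockout of the vitamin D receptor (VDR) and the study's text a knockdown, and VDR-WT, which received a scrambled infection according to the labels. Each compound was given for 24 h at 100 nM in medium with charcoal-treated serum, so doses and times were matched. The other 6 libraries hold, in each genotype, the vehicle (0.1% ethanol) and a second pair that differs by the same hydroxyl, 1,20(OH)2D3 and 20(OH)D3, at the same dose and time. No ethanol library entered the main comparison, and ethanol values below are given for context. The ethanol libraries enter only the fits of all 10 libraries. The treatment label of the 20(OH)D3 library of VDR-KD reads 2(OH)D3, while its title reads 20(OH)D3.

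25(OH)D3 is the main circulating form of vitamin D3. The enzyme CYP27B1 adds the hydroxyl at C1α and thereby makes 1,25(OH)2D3, the form that binds the VDR with high affinity. The receptor then pairs with a retinoid X receptor (RXR) and acts as a transcription factor, and CYP24A1, the enzyme that inactivates both secosteroids by hydroxylation of the side chain, is its best known target. Melanoma cells can carry the VDR, and vitamin D compounds are known to slow their growth in culture.

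Values are FPKM, fragment counts scaled to gene length and library size, with 1 library per condition and thus no replicate of any condition. The notes on treatment mention triplicates, and the sources do not say whether these were pooled into 1 library. The genotypes served as the pairs. The p-values thus rest on how far the difference between the compounds varied between 2 genotypes, combined with spread borrowed across genes. The variation between the genotypes may be technical in part. Depth in reads is unknown. The 4 libraries held 13006 to 13089 entries of at least 1 FPKM, and the median shift between the compounds was -0.00131 (VDR-KD) and 0.0158 (VDR-WT) on the log2 scale.

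The targeted gene went against its label. VDR mRNA measured 12.1 FPKM (1,25(OH)2D3) and 11.96 FPKM (25(OH)D3) in the libraries labelled VDR-KD, and 7.55 and 9.03 FPKM in the corresponding VDR-WT libraries. Among all 10, the 5 libraries labelled VDR-KD spanned 11.96 to 14.8 FPKM and the 5 VDR-WT libraries 5.54 to 9.63 FPKM, with no overlap. The mRNA level is not a measure of the protein, and the sources do not give the targeted stretch of the gene, so the genotypes are used below only as the labels name them. The melanocytic markers MITF, SOX10, PMEL, MLANA and TYR were all expressed, the lowest being TYR at 119 to 176 FPKM in the 4 libraries. Of 5 endothelial markers the summed level was at most 0.982 FPKM in these libraries, and leukocyte markers summed to 1.77 to 3.68 FPKM. Keratinocyte markers summed to 9.55 to 12.1 FPKM, nearly all of it KRT10, while KRT5 and KRT14 were listed at 0 in all 10 libraries. Fibroblast markers summed to 75.4 to 134 FPKM, nearly all of it LUM, which was at 130 and 94.2 FPKM with 1,25(OH)2D3 and at 92.0 and 70.8 FPKM with 25(OH)D3 (adjusted p = 0.0745 by limma), while the collagen gene COL3A1 was under 0.1 FPKM in every library. In bulk RNA a change in the number of expressing cells and a change in RNA per cell cannot be told apart.

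One group of genes separated the 10 libraries across compounds. The mean log2 level of the inducible heat shock genes HSPA6, HSPA1A and HSPA1B was 2.06 and 1.15 in the 2 libraries with 1,25(OH)2D3 and 6.72 and 5.29 in the 2 with 25(OH)D3. It was also low in VDR-KD with 1,20(OH)2D3 (2.30) and in VDR-WT with 20(OH)D3 (1.97). The remaining libraries were higher, at 6.23 in VDR-KD with 20(OH)D3, 4.10 in VDR-WT with 1,20(OH)2D3, and 6.25 and 4.70 with ethanol. Within the 4 libraries compared, this level and the compound cannot be told apart, and gene groups with calls are therefore also described with this level as a further term in a fit of all 10 libraries, a fit chosen after the data were seen.

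On the log2(FPKM + 0.1) scale, 226 of the 13088 entries tested passed the threshold (limma with genotype as a term, Benjamini-Hochberg adjusted p under 0.05). An unadjusted p under 0.05 was reached by 2268 of the 13088, the background for the unadjusted counts of gene groups below. The 226 are 1.73% of entries tested, and 156 were higher with 1,25(OH)2D3 (1.19% of entries tested) and 70 were lower (0.535%). The difference exceeded 2-fold for 84 of the higher and 41 of the lower entries. All 226 had the same sign in both genotypes, and for 212 the libraries of the 2 compounds did not overlap, against 18.0% of all entries tested not overlapping upwards and 16.3% downwards. Both counts were largely set in advance, because the test called entries for agreement between the genotypes in these same 4 libraries. They are not separate support for the calls. The median difference was 1.06 among entries that rose and -1.15 among those that fell, and the median absolute difference of all entries was 0.170 with a median 95% half-width of 0.352. Calls rested on spread borrowed across genes, since 1 residual degree of freedom remained. They came to 6 higher and 0 lower without the genotype term (944 entries at an unadjusted p under 0.05), and to 0 in both directions with no intensity trend (1884 entries, all by limma). In the 8 libraries with a compound and any 1 of the 4 left out, 2 to 12 entries were higher and 0 to 3 lower past the test.

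**Figure D1:**
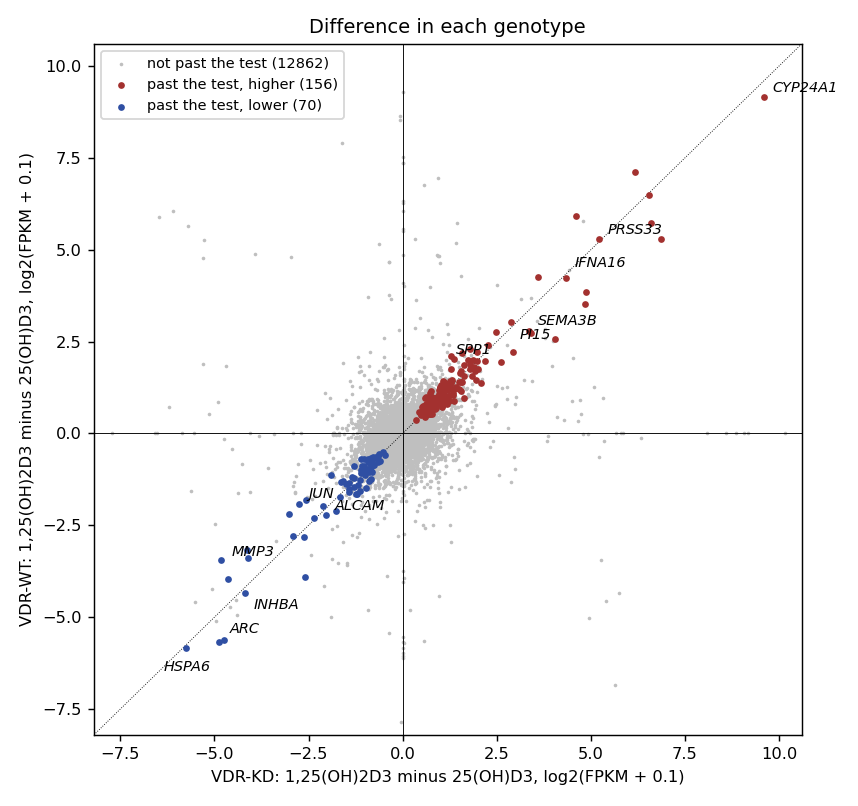
Difference between 1,25(OH)2D3 and 25(OH)D3 in log2(FPKM + 0.1), with VDR-KD on the x axis and VDR-WT on the y axis, 1 point per entry tested. The 156 entries higher and 70 lower past the test lie along the dotted line of equal differences, with CYP24A1 at the top right and HSPA6 and ARC at the bottom left. Closeness to that line is favoured by the test itself, which used the same libraries.

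CYP24A1 showed the widest separation between hormone and precursor. It lies on the minus strand at chr20:54153449-54173973 (GRCh38) and was at 77.3 FPKM (VDR-KD) and 56.8 FPKM (VDR-WT) with 1,25(OH)2D3. It was listed at 0 in both precursor libraries, and ethanol gave 0.452 and 0.0777 FPKM. No fold is given for a gene listed at 0, and its fitted difference of 9.37 (adjusted p = 0.00320 by limma) depends on the constant added before the logarithm. The separation was thus seen in libraries of either genotype label.

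PRSS33 encodes a serine protease and lies on the minus strand at chr16:2783953-2787948. It was at 56.5 and 67.7 FPKM with 1,25(OH)2D3 and at 1.43 and 1.64 FPKM with 25(OH)D3, VDR-KD being given first here and below. The difference was 5.25 ± 0.13 (SE with spread borrowed across genes, here and below), or 38.0-fold with a 95% interval of 30.2 to 47.8 (adjusted p = 0.00273 by limma). With ethanol it was at 0.887 and 1.37 FPKM, close to its level with 25(OH)D3. SEMA3B, a secreted semaphorin and a known VDR target, lies on the plus strand at chr3:50267558-50277546. It reached 54.4 and 49.8 FPKM with the hormone and 5.21 and 7.07 FPKM with the precursor, an 8.44-fold difference (log2 difference 3.08 ± 0.17, adjusted p = 0.0107). PI15, a secreted protein named as a peptidase inhibitor, was at 115 and 109 FPKM with 1,25(OH)2D3 against 15.6 and 13.3 FPKM with 25(OH)D3 (log2 difference 2.95 ± 0.09, adjusted p = 0.00336). SPP1, which encodes osteopontin, was at 185 and 181 FPKM against 52.9 and 53.3 FPKM (log2 difference 1.78 ± 0.07, adjusted p = 0.00623). The compounds did not overlap for any of these genes. Ethanol gave 6.39 and 7.15 FPKM for SEMA3B, 17.2 and 19.4 FPKM for PI15 and 55.7 and 56.4 FPKM for SPP1, closer to the precursor than to the hormone in both genotypes.

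**Figure D2:**
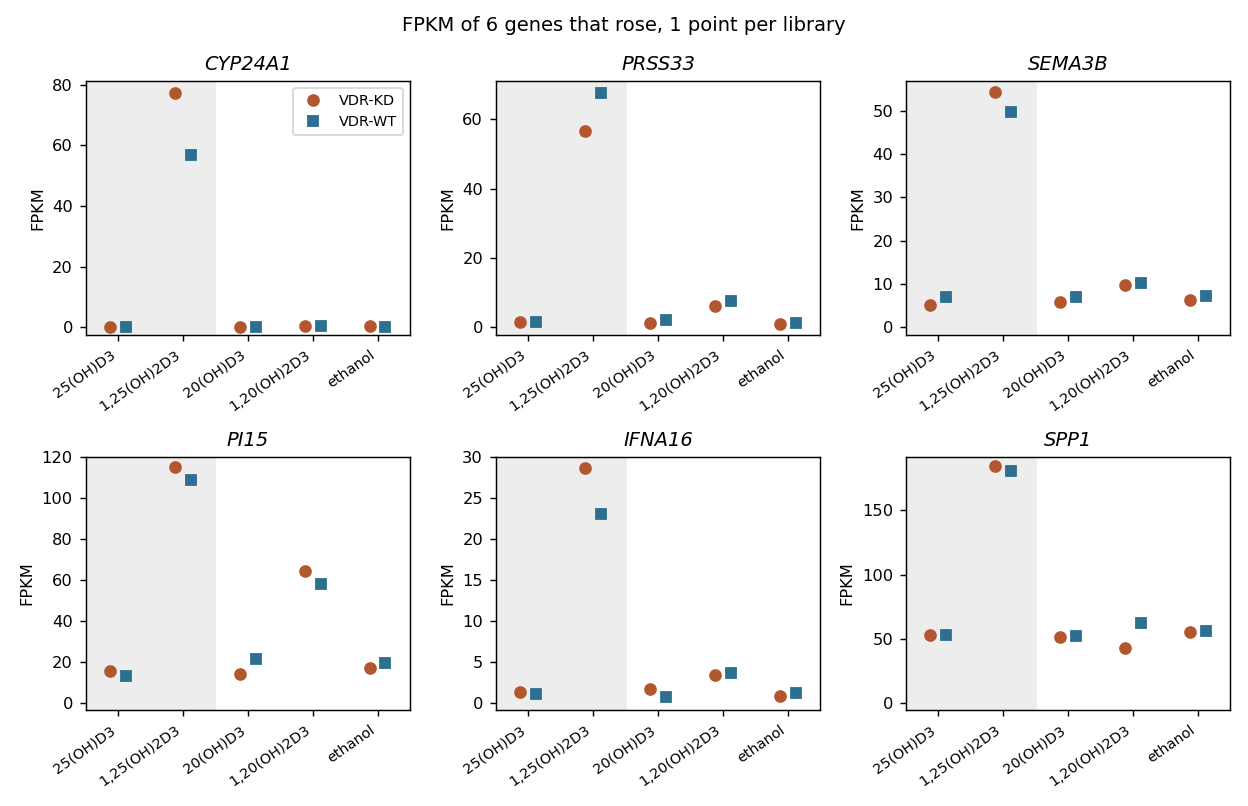
FPKM on a linear axis of 6 genes that rose, by treatment, with 1 point per library (circles VDR-KD, squares VDR-WT). The shaded part holds the 4 libraries compared, where the 1,25(OH)2D3 points stand apart, from 23.1 FPKM for IFNA16 to 185 FPKM for SPP1.

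A run of neighbouring type I interferon genes on the short arm of chromosome 9 was also higher with 1,25(OH)2D3. Alpha interferons are secreted antiviral cytokines that are normally silent until a cell senses a pathogen. IFNA16 was at 28.6 and 23.1 FPKM with 1,25(OH)2D3 and at 1.32 and 1.13 FPKM with 25(OH)D3 (log2 difference 4.29 ± 0.16, adjusted p = 0.00437 by limma). IFNA14 was at 12.6 and 14.9 FPKM against 0.336 and 0.936 FPKM (4.36, adjusted p = 0.0156). IFNA17 was at 6.09 and 6.56 against 0.114 and 0.474 FPKM (4.20, adjusted p = 0.0357), and IFNA7 at 7.10 and 5.08 against 0.493 and 0.172 FPKM (3.93, adjusted p = 0.0274). These genes lie side by side on the minus strand, and from IFNA7 to IFNA14 they span 38.5 kb at chr9:21201469-21239991 (GRCh38, from the deposited table counted from 1). Of the 7 entries in this stretch, 6 were at 1 FPKM or more in both libraries with 1,25(OH)2D3, among them the pseudogenes IFNWP18 (7.85 and 5.97 FPKM) and IFNWP5 (1.16 and 2.41 FPKM), while IFNA10 was at 0.478 and 0.620 FPKM. The stretch was picked out after its values were seen. The 13 other entries between the flanking genes HACD4 and KLHL9 were at most 0.693 FPKM in the 4 libraries, and KLHL9 itself was level, at 15.9 to 16.8 FPKM. Alpha interferon genes are near copies of each other, and the sources do not say how reads that match several of them were counted, so the split of the signal between them is uncertain. The 16 interferon response genes tested, which report interferon signalling, held 0 past the test in either direction by limma. An unadjusted p under 0.05 was reached by 4 of them, against 2268 of all 13088 entries. Their median difference was -0.23, against 0.0026 over all entries. OAS1 came closest, at 24.7 and 33.4 FPKM against 15.6 and 17.2 FPKM (0.81, adjusted p = 0.0584).

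The 150 bases before the start of 5 of these genes are shown because neighbours with closely similar sequence differed in level. Capitals mark bases that differ from IFNA17 in a global alignment of 250 bases. The sequences are from RefSeq (GRCh38.p14, minus strand, 5′ to 3′), at chr9:21228223-21228372 for IFNA17, chr9:21202206-21202355 for IFNA7, chr9:21240006-21240155 for IFNA14, chr9:21207144-21207293 for IFNA10 and chr9:21166661-21166810 for IFNA21.
IFNA17: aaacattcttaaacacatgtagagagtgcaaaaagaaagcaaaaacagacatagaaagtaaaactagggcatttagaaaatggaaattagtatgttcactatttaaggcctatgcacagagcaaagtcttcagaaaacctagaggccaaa
IFNA7: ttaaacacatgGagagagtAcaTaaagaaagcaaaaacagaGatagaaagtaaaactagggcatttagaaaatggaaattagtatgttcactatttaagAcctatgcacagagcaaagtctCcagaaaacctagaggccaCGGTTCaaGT
IFNA14: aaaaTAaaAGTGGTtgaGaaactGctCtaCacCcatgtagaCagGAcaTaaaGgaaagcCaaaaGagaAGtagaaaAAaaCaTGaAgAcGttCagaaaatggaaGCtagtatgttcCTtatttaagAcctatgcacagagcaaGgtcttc
IFNA10: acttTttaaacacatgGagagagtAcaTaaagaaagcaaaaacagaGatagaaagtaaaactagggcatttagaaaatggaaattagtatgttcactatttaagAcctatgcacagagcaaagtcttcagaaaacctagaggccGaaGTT
IFNA21: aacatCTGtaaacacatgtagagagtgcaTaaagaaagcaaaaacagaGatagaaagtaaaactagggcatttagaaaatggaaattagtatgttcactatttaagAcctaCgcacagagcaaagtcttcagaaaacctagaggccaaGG
Over the 250 bases, IFNA10 and IFNA21 were 92.1% and 92.8% identical to IFNA17, more than IFNA7 (86.2%) or IFNA14 (64.6%). IFNA21 lies outside the stretch and was listed at 0 in all 4 libraries, so similarity of this window did not order the genes by level. Half-sites of the vitamin D response element (the words AGGTCA and AGTTCA, and each of them with G in place of its first letter, on either strand) were counted in the same window. Of the genes shown, IFNA7 held 1 and the others held 0. IFNA5 and IFNA4, which are not shown, held 1 and 0. IFNA5 was listed at 0 in all 10 libraries, and IFNA4 was at most 0.122 FPKM in the 4 compared. No upstream sequence was found for IFNA16, nor for CYP24A1 and MMP3. Across the 113 genes with a single protein-coding name that rose, 89 were matched to RefSeq and 26 (29.2%) held such a half-site, against 34.0% of all 27305 genes. A direct repeat of 2 half-sites with 3 bases between them was in 0 of these 89 and in 18 of all genes. CYP24A1 was not among the 89. At 0.0659% of all genes, the repeat was too rare for the 0 to tell the groups apart. Such a match is a description of letters and not of binding.

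Other large rises were smaller in absolute level. UBAP1L, named for a ubiquitin-associated protein, was at 9.85 and 11.6 FPKM with 1,25(OH)2D3 against 0.839 and 1.64 FPKM with 25(OH)D3 (log2 difference 3.07, adjusted p = 0.0174 by limma). ERO1B, an oxidase of the endoplasmic reticulum, was at 10.9 and 7.39 against 1.85 and 0.999 FPKM (2.63). MUC19, a gel-forming mucin, was at 13.8 and 30.9 against 2.17 and 7.96 FPKM (2.28). CPN1, the catalytic subunit of carboxypeptidase N, was at 23.9 and 33.5 against 5.18 and 8.41 FPKM (2.08, adjusted p = 0.0113). In MUC19 and CPN1 the VDR-WT libraries were higher than those labelled VDR-KD with either compound, and the compounds still did not overlap.

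Of the 12 largest rises, 4 remained past the test and 12 kept their sign with the level of HSPA6, HSPA1A and HSPA1B as a term in the fit of all 10 libraries. The 4 were PRSS33 (4.87), SEMA3B (2.91), PI15 (2.41) and IFNA16 (5.08), and SPP1 also passed (2.15). The other 8 did not pass by limma with 3 residual degrees of freedom. Their differences with the term are set against those without it in all 10 libraries, followed by the adjusted p with the term. The difference was larger with the term for ERO1B (3.35 against 2.63, 0.0814) and IFNA7 (5.97 against 3.93, 0.123). It was also larger for IFNA14 (5.00 against 4.36, 0.160), MUC19 (2.37 against 2.28, 0.226) and IFNA17 (4.70 against 4.20, 0.471). It was smaller for CYP24A1 (8.77 against 9.37, 0.0814), CPN1 (2.06 against 2.08, 0.0814) and UBAP1L (2.62 against 3.07, 0.264). Not passing thus did not always go with a smaller difference. Of the 156 entries that rose, 155 kept their sign under this term, with a median of 0.94, and 8 remained past the test.

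Of 20 genes of the melanocyte lineage tested, 5 rose with the hormone, 0 fell and 15 did not pass the test. A positive difference was seen in 17, and the median was 0.32. MITF, the master regulator of the lineage, was at 269 and 284 FPKM with 1,25(OH)2D3 against 143 and 156 FPKM with 25(OH)D3 (1.85-fold, log2 difference 0.89 ± 0.07, adjusted p = 0.0156 by limma). TRPM1, melastatin, an ion channel gene under MITF control, was at 82.1 and 75.3 against 26.3 and 20.5 FPKM (3.37-fold, 1.75 ± 0.10, adjusted p = 0.0113). MLANA, a melanosomal antigen, was at 2630 and 2992 against 1731 and 1538 FPKM (0.78, adjusted p = 0.0405). DCT, a melanin synthesis enzyme, was at 402 and 377 against 263 and 237 FPKM (0.64, adjusted p = 0.0274). PMEL, the fibril protein of melanosomes, was at 4604 and 5200 against 3584 and 4043 FPKM (0.36, adjusted p = 0.0485). TYR, the rate-limiting enzyme of melanin synthesis, differed by 0.06 with a 95% interval of -0.12 to 0.24, and SOX10 by 0.22 with an interval of -0.01 to 0.45. With the heat shock gene level as a term, MITF, TRPM1, MLANA, DCT and PMEL differed by 0.74, 1.48, 0.65, 0.36 and 0.071, and 0 of the 5 passed the test (adjusted p from 0.0814 to 0.9301).

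Among semaphorins, guidance cues that signal through plexins and neuropilins, 3 of 20 members tested rose and 1 fell, with a median of 0.12. Besides SEMA3B, the membrane-bound SEMA6B was at 11.3 and 9.26 FPKM against 4.32 and 2.18 FPKM (1.70, adjusted p = 0.0438 by limma). The receptor PLXND1 was at 134 and 136 against 58.4 and 59.2 FPKM (2.29-fold, 1.20 ± 0.08, adjusted p = 0.0113), while the co-receptor NRP2 fell from 56.0 and 49.7 to 35.6 and 30.0 FPKM (-0.69, adjusted p = 0.0436). Of 24 serine proteases and protease inhibitors, 3 rose and 2 fell. TIMP3, an inhibitor of matrix metalloproteinases, was at 545 and 364 FPKM with the hormone against 269 and 183 FPKM with the precursor (1.01 ± 0.06, adjusted p = 0.0113). The protease PRSS23 fell from 14.8 and 17.8 to 7.49 and 8.77 FPKM (-0.99, adjusted p = 0.0405), and SERPINE2, an inhibitor of thrombin and plasminogen activators, from 636 and 684 to 300.5 and 373 FPKM (-0.98, adjusted p = 0.0162). With the heat shock gene level as a term these genes kept their signs. SEMA3B, PRSS33, PI15 and TIMP3 (1.08) passed the test, and PLXND1 (adjusted p = 0.0571), PRSS23 (0.299), SEMA6B (0.310), NRP2 (0.402) and SERPINE2 (0.618) did not.

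Of the 12 largest falls among genes with a single protein-coding name and at least 5 FPKM, 4 were heat shock genes. These 12 did not pass the test in a fit of the 8 libraries with a compound. There the adjusted p over genes and both C1α pairs ran from 0.0963 (IL7R) to 0.347 (MMP3) by limma. HSPA6 was at 0.720 and 0.176 FPKM with 1,25(OH)2D3 against 44.5 and 15.7 FPKM with 25(OH)D3 (log2 difference -5.80 ± 0.21, adjusted p = 0.00437 by limma). HSPA1A was at 9.57 and 6.65 against 165 and 71.1 FPKM (-3.75, adjusted p = 0.00937), and HSPA1B at 8.997 and 5.81 against 159 and 52.7 FPKM (-3.64, adjusted p = 0.0126). These 2 genes are near-identical copies, so their split is uncertain. CRYAB, a small heat shock protein, was at 5.60 and 2.92 against 34.0 and 45.2 FPKM (-3.24, adjusted p = 0.0274). Of 15 heat shock genes tested these 4 fell and 0 rose, and the median was 0.08: HSP90AA1 differed by 0.17 (95% interval -0.12 to 0.46), DNAJB1 by 0.32 (0.13 to 0.51, adjusted p = 0.136) and BAG3 by 0.01 (-0.26 to 0.28).

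ARC, an immediate early gene of neurons, was at 0.804 and 0.104 FPKM with the hormone against 26.5 and 10.4 FPKM with the precursor (-5.28, adjusted p = 0.0113 by limma). The decoy receptor IL13RA2 was at 0.230 and 0.488 against 8.13 and 9.04 FPKM (-4.30, adjusted p = 0.0169). INHBA, the subunit of activin A, was at 0.290 and 0.319 against 7.06 and 8.33 FPKM (-4.26, adjusted p = 0.0162). The matrix metalloproteinase MMP3 was at 0.354 and 1.497 against 12.8 and 17.2 FPKM (-4.13, adjusted p = 0.0235), and MMP1 at 1.82 and 5.13 against 15.5 and 23.8 FPKM (-2.61, adjusted p = 0.0230). CXCL8, a chemokine for neutrophils, was at 2.501 and 1.58 against 15.8 and 11.8 FPKM (-2.71, adjusted p = 0.0113), and IL7R, the interleukin 7 receptor, at 1.70 and 1.32 against 10.4 and 4.90 FPKM (-2.19, adjusted p = 0.0405). The compounds did not overlap for any gene in this paragraph.

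Several of these falls moved with the heat shock genes in the other libraries too. In VDR-KD, ARC was at 0.269 FPKM with 1,20(OH)2D3 against 25.2 FPKM for 20(OH)D3, but in VDR-WT it was at 3.15 against 0.207 FPKM. MMP3 was listed at 0 and was at 10.3 FPKM in the first pair, and at 2.84 and 0.797 FPKM in the second. INHBA was at 0.683 and 7.21 FPKM and at 2.05 and 0.322 FPKM. In ARC, MMP3 and INHBA the sign of the difference between 1,20(OH)2D3 and 20(OH)D3 was thus opposite in the 2 genotypes. Over the 70 entries that fell, 34 were in both genotypes also lower with 1,20(OH)2D3 than with 20(OH)D3, 25 in VDR-KD alone and 8 in VDR-WT alone. Over the 156 that rose, 119 were also higher with 1,20(OH)2D3 in both genotypes. The same shares over all entries were not counted, so these counts have no background to be set against. With the heat shock gene level as a term, the differences became 1.49 for ARC, 2.08 for MMP3, 0.43 for CXCL8 and 0.05 for JUN, that is, no longer negative. They stayed negative for INHBA (-0.22), MMP1 (-0.61), IL7R (-0.61) and IL13RA2 (-1.04). Over all of these genes the adjusted p ran from 0.298 to 0.976 by limma. Of the 70 entries, 58 kept their sign under this term, with a median of -0.71, and 1 remained past the test. That entry was VGF, a secreted neuropeptide precursor, at 237 and 194 FPKM with the hormone against 579 and 531 FPKM with the precursor (-1.37 ± 0.07, adjusted p = 0.0105, and -1.62 with the term, adjusted p = 0.0269).

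**Figure D3:**
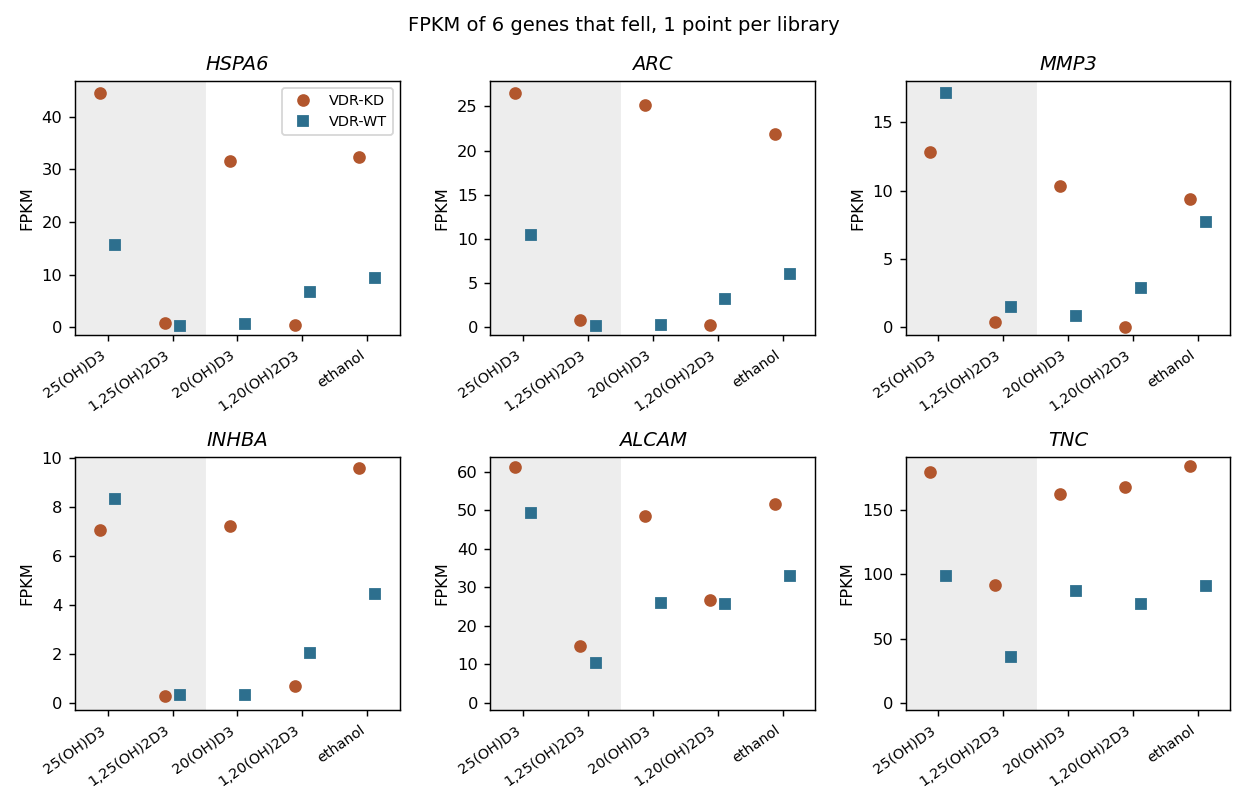
FPKM on a linear axis of 6 genes that fell, by treatment, with 1 point per library (circles VDR-KD, squares VDR-WT). HSPA6, ARC, MMP3 and INHBA were low with 1,25(OH)2D3, in VDR-KD with 1,20(OH)2D3 and in VDR-WT with 20(OH)D3, while TNC was lowest with 1,25(OH)2D3 in both genotypes.

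Of 26 genes of the invasive, dedifferentiated melanoma state tested, 6 fell with the hormone, 0 rose and 20 did not pass the test, with a median of -0.66. ALCAM, a cell adhesion molecule of melanoma, fell from 61.3 and 49.3 FPKM with 25(OH)D3 to 14.8 and 10.5 FPKM with 1,25(OH)2D3 (-2.13 ± 0.11, adjusted p = 0.00937 by limma). TNC, the matrix protein tenascin C, fell from 179 and 98.8 to 91.9 and 35.5 FPKM (-1.22 ± 0.14, adjusted p = 0.0356). SNAI2, a repressor of epithelial genes, fell from 38.9 and 74.5 to 19.5 and 33.8 FPKM (-1.07, adjusted p = 0.0230), and FN1, fibronectin, from 640.5 and 652 to 413 and 446 FPKM (-0.59, adjusted p = 0.0309). The others past the test were MMP1 and JUN. TNC was lower in VDR-WT with either compound, and the compounds did not overlap for any of these genes. With the heat shock gene level as a term, 0 of the 6 passed the test. ALCAM and TNC then differed by -1.53 and -1.42 (adjusted p = 0.0575 and 0.0814), SNAI2, MMP1 and FN1 by -0.75, -0.61 and -0.026 (adjusted p from 0.474 to 0.977), and JUN by 0.054. AXL, a receptor kinase typical of this state, was low in all 4 libraries, at 0.684 and 0.616 FPKM with the hormone against 1.68 and 1.96 FPKM with the precursor (adjusted p = 0.234).

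Of 28 genes that report mitogen signalling, 7 fell and 0 rose, with a median of -0.43. With the heat shock gene level as a term, 1 of the 7 (VGF) remained past the test and 4 kept their sign, while ARC (1.49), FOSB (0.84) and JUN (0.054) turned positive and FOS was at -0.57 (adjusted p = 0.553). JUN fell from 17.9 and 8.92 to 2.59 and 2.29 FPKM (-2.33, adjusted p = 0.0309 by limma). FOS fell from 26.3 and 25.8 to 6.04 and 6.54 FPKM (-2.03, adjusted p = 0.0113), and FOSB from 4.02 and 4.18 to 0.705 and 0.773 FPKM (-2.32, adjusted p = 0.0476). These genes encode parts of the transcription factor AP-1. ARC, IER3, PHLDA1 and VGF were the others past the test. The feedback phosphatase DUSP6 differed by -0.12 (95% interval -0.31 to 0.07) and the cyclin gene CCND1 by -0.15 (-0.41 to 0.11), both outputs of the same cascade.

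Genes of the receptor and of vitamin D metabolism showed little else. Of 9 metabolism genes tested, CYP24A1 rose and 0 fell (median 0.13), and the 25-hydroxylase gene CYP2R1 differed by 0.34 with an interval of -0.13 to 0.81. CYP27B1, which makes the hormone from the precursor, shares its entry with METTL1 and was left out. Of 19 receptors and coregulators 0 passed the test in either direction by limma, 3 having an unadjusted p under 0.05 (median -0.05). VDR differed by -0.12 (95% interval -0.48 to 0.25) and RXRA by 0.08 (-0.41 to 0.56). RXRG, another RXR gene, was at 11.02 and 8.90 against 6.205 and 5.42 FPKM (0.76, adjusted p = 0.0928). Of 18 genes listed as VDR targets from other tissues, 4 rose and 0 fell, while the median was -0.27. Beside CYP24A1, SEMA3B and SPP1 the fourth was SLC37A2, a sugar phosphate exchanger, at 25.0 and 14.4 against 8.47 and 6.36 FPKM (1.36, adjusted p = 0.0327). With the heat shock gene level as a term, SEMA3B and SPP1 passed the test, and CYP24A1 (adjusted p = 0.0814) and SLC37A2 (0.76, adjusted p = 0.398) did not. The antimicrobial peptide gene CAMP was at 2.33 and 2.76 against 0.647 and 0.846 FPKM (1.65, adjusted p = 0.128). Of 16 calcium and phosphate transport genes 0 passed the test by limma, with 3 at an unadjusted p under 0.05 (median -0.10). ORAI2 was at 9.07 and 7.15 against 13.6 and 11.2 FPKM (-0.61, adjusted p = 0.113), and CALB2 was low and scattered, at 0.145 and 0.0752 against 0.934 and 3.02 FPKM (adjusted p = 0.192).

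Proliferation genes did not separate hormone from precursor past the test. Of 27 replication genes 0 passed by limma and 2 had an unadjusted p under 0.05 (median -0.03), with CDT1 and UHRF1 showing the largest differences, -0.46 (95% interval -0.87 to -0.05, adjusted p = 0.249) and -0.33 (-0.64 to -0.03, adjusted p = 0.260). Of 27 mitosis genes 0 passed and 8 had an unadjusted p under 0.05, while 25 had a positive difference, with a median of 0.15. AURKB, a mitotic kinase, was at 102 and 116 against 79.7 and 76.1 FPKM (0.49, adjusted p = 0.0972), and TPX2, a spindle factor, at 183 and 161 against 134 and 116 FPKM (0.47, adjusted p = 0.0583). MKI67 differed by 0.13 (-0.17 to 0.42). Among 22 cell cycle inhibitors and p53 targets GADD45B fell, from 17.6 and 8.46 to 6.52 and 2.76 FPKM (-1.50, adjusted p = 0.0274), but differed by 0.53 with the heat shock gene level as a term (adjusted p = 0.745). CDKN1A was low, at 3.06 and 2.30 against 4.32 and 4.07 FPKM (adjusted p = 0.252).

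In metabolism and stress, changes were modest. Of 22 glycolysis and hypoxia genes 2 rose, ADM from 82.7 and 91.5 to 118 and 135 FPKM (0.54, adjusted p = 0.0485 by limma) and LDHA, in an entry shared with a noncoding name, from 1485 and 1657 to 2025 and 2496 FPKM (0.52, adjusted p = 0.0382), and the median was 0.22. Among NRF2 targets, HMOX1, a heme-degrading enzyme, fell from 139 and 328.5 to 64.7 and 202 FPKM (-0.90) and the cystine transporter SLC7A11 from 35.9 and 40.7 to 20.0 and 24.5 FPKM (-0.79). The amino acid transporter SLC7A5 rose from 242 and 136 to 413 and 197 FPKM (0.65, adjusted p = 0.0438) and was the only one of 19 unfolded protein and amino acid stress genes past the test. Of 30 TGF-beta and matrix genes 3 fell and 0 rose (median -0.37), namely SKIL (-1.29), ID1 (-1.10) and ITGB5 (-0.71). Of 20 cholesterol synthesis genes 0 passed the test and 4 had an unadjusted p under 0.05, HMGCS1 being at 0.68 (adjusted p = 0.0996) and INSIG1 at 0.49 (adjusted p = 0.136). Of 11 NF-kB and chemokine genes CXCL8 alone fell. Of the genes named so far in this paragraph as rising or falling, 0 passed the test with the heat shock gene level as a term, with differences of 0.53 for ADM, 0.59 for LDHA, 0.60 for SLC7A5, -0.46 for HMOX1, -0.61 for SLC7A11, -0.44 for SKIL, -1.24 for ID1, -0.98 for ITGB5 and 0.43 for CXCL8 (adjusted p from 0.216 to 0.936). Among 12 housekeeping genes 0 passed and 3 had an unadjusted p under 0.05, the outermost being PGK1 at 0.39 (adjusted p = 0.0616) and ACTB at -0.28 (adjusted p = 0.0965).

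**Figure D4:**
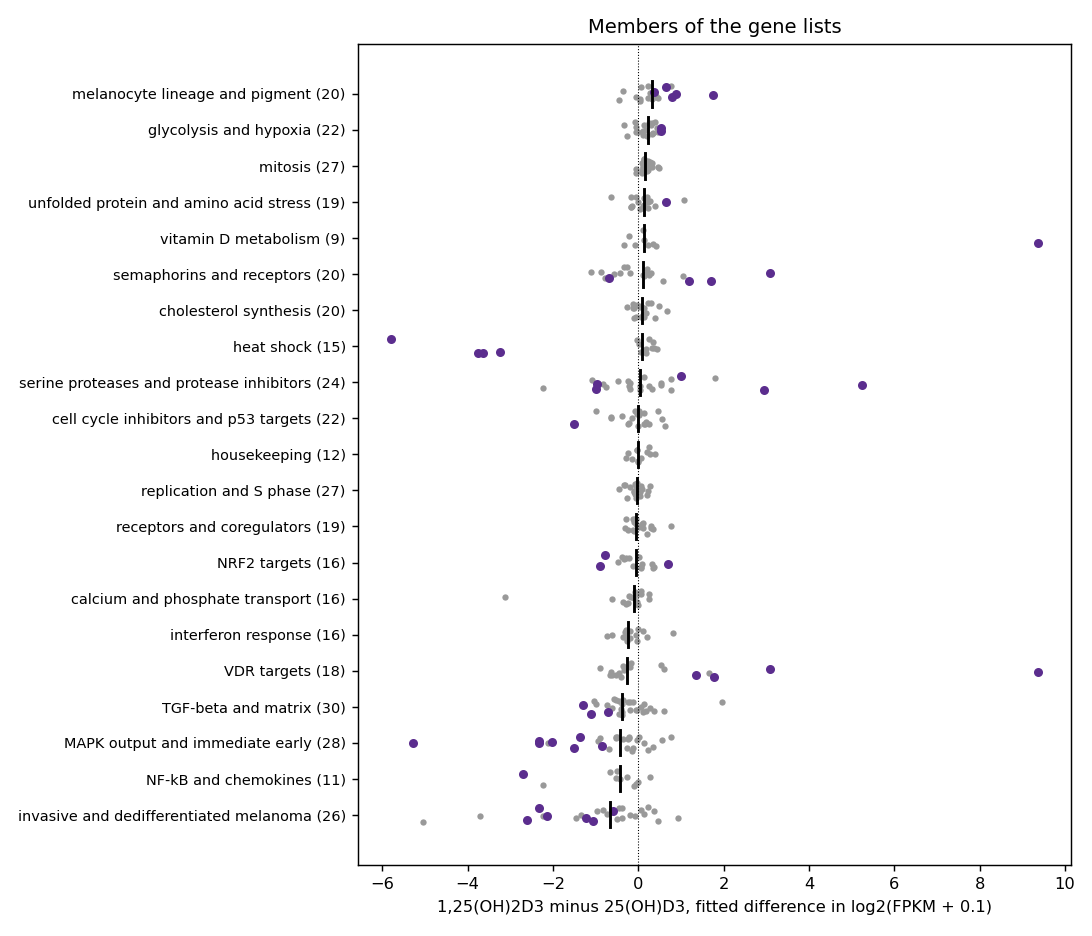
Fitted difference between 1,25(OH)2D3 and 25(OH)D3 in log2(FPKM + 0.1) for each member tested of 21 gene lists, ordered by the list median (black bar), with the number tested in parentheses. Purple points passed the test, and the medians run from -0.66 for the invasive list to 0.32 for the melanocyte list.

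The same hydroxyl was compared on the 20-hydroxylated side chain. In a fit of the 8 libraries with a compound, 2 pairs were compared and p-values were adjusted over genes and both pairs. Between 1,25(OH)2D3 and 25(OH)D3, 168 entries were higher (1.29%) and 57 lower (0.437%) of 13036 tested, or 1.73% together. Between 1,20(OH)2D3 and 20(OH)D3, 8 were higher (0.0614%) and 4 lower (0.0307%), or 0.0921% together, and 998 had an unadjusted p under 0.05. PRSS33 was among the latter, at 6.18 and 7.71 FPKM with 1,20(OH)2D3 against 1.18 and 2.17 FPKM with 20(OH)D3 (2.04, 95% interval 1.58 to 2.49, adjusted p = 0.00735 by limma). So was PI15, at 64.6 and 58.2 against 14.3 and 21.7 FPKM (1.79, 1.35 to 2.24, adjusted p = 0.0105). CYP24A1 was at 0.490 and 0.505 against 0.0441 and 0.187 FPKM (adjusted p = 0.307), and SPP1 at 42.7 and 62.2 against 51.4 and 52.3 FPKM, a difference of -0.01 with an interval of -0.34 to 0.32. Of the 226 entries past the test for 1,25(OH)2D3 against 25(OH)D3, 201 had the same sign in the second pair, where their median was 0.32 for those that rose and -0.37 for those that fell. The share of all entries with the same sign was not counted, so the 201 cannot be read as particular to these entries. Within the second pair the heat shock gene level also differed, 2.30 against 6.23 in VDR-KD, as in the first pair. In VDR-WT it went the other way, 4.10 against 1.97.

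The difference of these differences was tested directly, since the pairs share no library. The effect of the hydroxyl at C1α differed with the side chain for 6 of 13036 entries (0.0460%), 5 upwards (0.0384%) and 1 downwards (0.00767%), with 1104 at an unadjusted p under 0.05. It was larger with the 25-hydroxyl for CYP24A1 (7.82, 95% interval 5.98 to 9.66, adjusted p = 0.0464 by limma), PRSS33 (3.21, 2.57 to 3.86, adjusted p = 0.0396), SEMA3B (2.44, 1.93 to 2.96), CPN1 (1.75, 1.37 to 2.14) and TIMP3 (0.90, 0.67 to 1.12, adjusted p = 0.0481). It was lower for the noncoding entry AL109927.1 (-1.50). TIMP3 was at 249 and 168 FPKM with 1,20(OH)2D3 against 238 and 151 FPKM with 20(OH)D3, near its ethanol level of 237 and 151 FPKM. SPP1 did not pass (1.79, 1.32 to 2.26, adjusted p = 0.0540), nor did PI15 (1.16, 0.53 to 1.78, adjusted p = 0.303), MITF (0.46, 0.20 to 0.72, adjusted p = 0.303) or IFNA16 (2.74, 1.77 to 3.71, adjusted p = 0.145). For HSPA6 and MMP3, which moved with the heat shock level, the interval was wide and included 0, from -9.97 to 0.99 and from -6.87 to 3.60. It was also wide for INHBA (-7.57 to -0.08) and IL13RA2 (-6.74 to -0.60), which did not pass (adjusted p = 0.575 and 0.504 by limma). A difference between the pairs was not resolved for these genes.

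**Figure D5:**
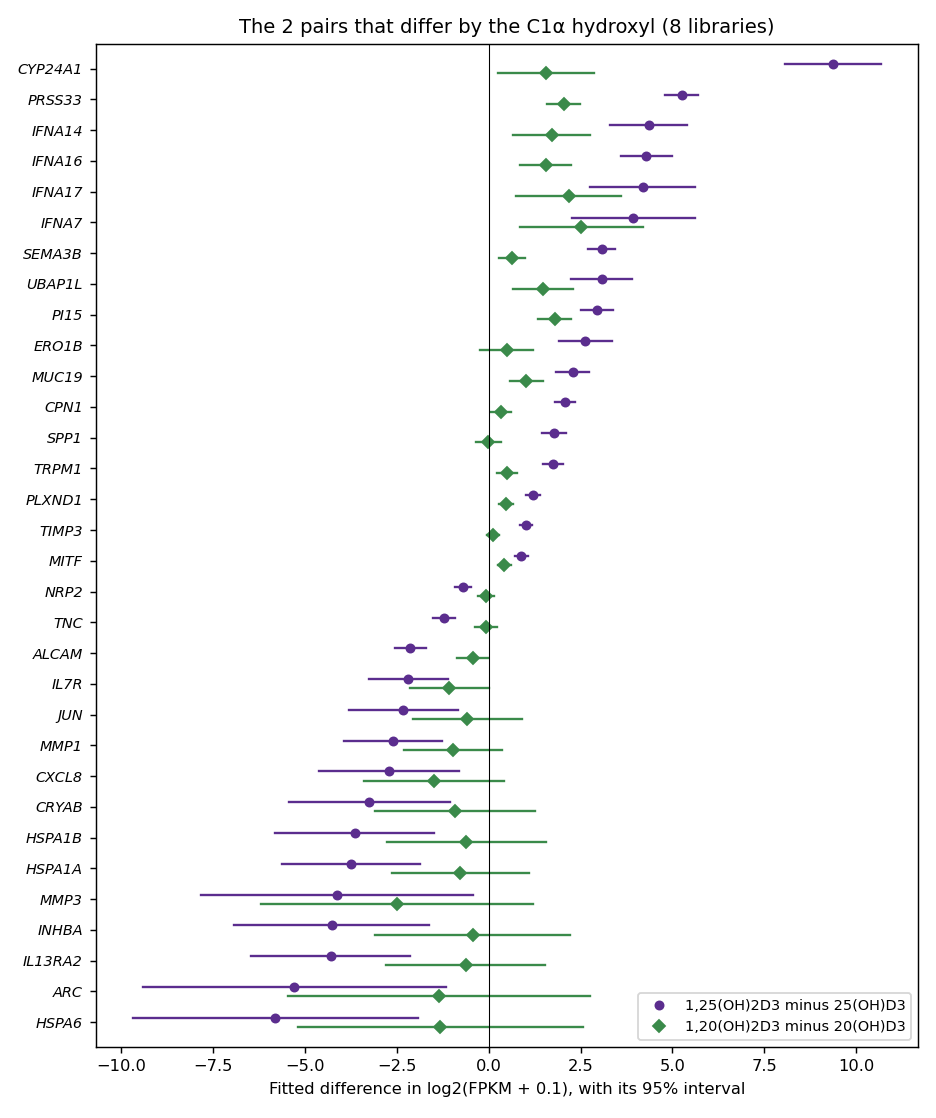
Fitted difference in log2(FPKM + 0.1) with its 95% interval (8 libraries, genotype as a term) for 1,25(OH)2D3 minus 25(OH)D3 (circles) and 1,20(OH)2D3 minus 20(OH)D3 (diamonds), for 32 named genes. The intervals stand apart for PRSS33 (5.25 against 2.04), SEMA3B (3.08 against 0.63) and SPP1 (1.78 against -0.01) and overlap for HSPA6, ARC and MMP3.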

How the data were processed

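RNA-seq of 10 WM164 libraries was used. The authors deposited FPKM per gene entry, made according to the submitters' notes with STAR 2.7.1a, Cufflinks 2.2.1 and Cuffdiff on GRCh38; the sources do not give the use of strand or of reads mapping to several places. Of 54826 entries, 2050 carry several names, and listed genes that share an entry with another protein-coding gene (31 of 517) were left out.

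Entries with a mean of at least 1 FPKM in the 4 libraries were tested on log2(FPKM + 0.1), which understates changes of low genes, with limma 3.58.1 in R 4.3.3 (lmFit, eBayes with trend; genotype and compound as terms) and Benjamini-Hochberg adjustment over all entries tested. The contrast of both C1α pairs used 8 libraries (3 residual degrees of freedom). Named genes were the markers CYP24A1, PRSS33 and SEMA3B with PI15, the 12 largest rises and falls over 2-fold with at least 5 FPKM, up to 4 members past the test per list (2 where none passed), and the smallest p-values of the contrast. Other list members and entries are named for their counts or intervals, after their values were seen. The members and lists were chosen with earlier results of these data known. The fits were tested on simulated data. Coordinates are from GENCODE 29 except where stated, and other values were computed in Python 3.11.15. Sequences were aligned globally with Biopython. One result is not reported here.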

Additional observations from a re-analysis of the deposited data

Results flagged for a closer look

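The difference between 1,25(OH)2D3 and 25(OH)D3 departed from that between 1,20(OH)2D3 and 20(OH)D3 in the test of the difference itself (limma, 8 libraries) for CYP24A1 (7.82 on the log2 scale), PRSS33 (3.21), SEMA3B (2.44), CPN1 (1.75), TIMP3 (0.90) and AL109927.1 (-1.50). The signs of each gene's difference were the same in both genotypes in the first pair. The value for CYP24A1 depends on the added constant, since it was listed at 0 in both libraries with 25(OH)D3.

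In 2 named genes, the sign of the difference between 1,25(OH)2D3 and 25(OH)D3 was opposite in the 2 genotypes, and this was not tested with 1 library each. KRT10 differed by -0.046 in VDR-KD and 0.41 in VDR-WT, and LYZ by -0.23 and 0.28. Neither passed the test over both genotypes.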

How the results depend on the processing

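The compounds were paired by genotype, and without that term 6 entries were higher and 0 lower. By replicate number, no paired analysis was possible because each condition has 1 library. Against 156 higher and 70 lower, the counts (limma, adjusted p under 0.05) were 84 and 42 with 1 added before the logarithm, 76 and 38 with a mean of at least 0.5 FPKM, 0 and 0 with no filter (2514 at an unadjusted p under 0.05), 259 and 111 with at least 5 FPKM, and 278 and 119 with libraries centred on the median. Of 48 named genes past the test, 31 remained past it in the 8 libraries with a compound and 35 in all 10. Of the heat shock list, 4 fell in the main fit and 0 in the 8 libraries. The counts over all entries were 288 and 109 in the 8 libraries with a compound, 327 and 153 in all 10, 0 and 0 with no intensity trend (1884 unadjusted), 333 and 202 among single protein-coding names, and 152 and 68 with 0.01 added. In the 8 libraries without 1 library, whose remaining partner is assumed to vary like the others, they ranged from 2 to 12 higher and from 0 to 3 lower (2 and 1 without VDR-KD 1,25(OH)2D3, 12 and 3 without VDR-KD 25(OH)D3, 2 and 0 without VDR-WT 1,25(OH)2D3, 6 and 0 without VDR-WT 25(OH)D3), and KRT10 and LYZ turned to -0.16 and -0.32 without VDR-WT 25(OH)D3.

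The term for the level of HSPA6, HSPA1A and HSPA1B in all 10 libraries was chosen after seeing the data; it left 8 higher and 1 lower, and turned HSPA6 to 0.66, ARC to 1.49, MMP3 to 2.08, CRYAB to 0.17, CXCL8 to 0.43, JUN to 0.054, CALB2 to 0.047, FOSB to 0.84, GADD45B to 0.53, DCN to -0.12 and LYZ to -0.42. HSPA6 itself enters the term. Of 66 named genes no other changed sign. The 6 entries of the contrast of pairs became 10 with 1 added, 0 with no filter (1693 unadjusted), 2 with no trend, 4 with at least 0.5 FPKM, 8 in all 10 libraries and 6 centred. The cause of these moves was not tested. With depth unknown, values under 1 FPKM carry no interval.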

Other observations

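Other entries past the test, chosen after their values were seen, are given as values (limma, FPKM in VDR-KD and VDR-WT). No entry named in this section passed the test with the heat shock gene level as a term. GDF15, a secreted stress cytokine, was at 613 and 429 FPKM with 1,25(OH)2D3 against 160 and 157 FPKM with 25(OH)D3 (log2 difference 1.70, adjusted p = 0.0156). SULT1C2, a sulfotransferase, was at 94.3 and 154 against 24.9 and 47.5 FPKM (1.81, adjusted p = 0.0105). COL16A1, a collagen, was at 25.9 and 52.7 against 7.45 and 10.63 FPKM (2.04, adjusted p = 0.0162), and the phospholipase PLB1 at 20.5 and 15.4 against 5.03 and 4.47 FPKM (1.88, adjusted p = 0.0156). The compounds did not overlap for these 4 genes.

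Of genes known from the melanocyte lineage that the lists did not hold, 3 that rose are given here. They were picked because they rose, and lineage genes outside the lists that did not rise were not counted. S100B, a calcium-binding protein used as a melanoma marker, was at 183 and 155 against 85.6 and 65.2 FPKM (1.17, adjusted p = 0.0128). IRF4, a transcription factor that acts on pigmentation, was at 18.0 and 18.7 against 8.37 and 9.05 FPKM (1.07, adjusted p = 0.0348). SAMMSON, a noncoding RNA next to MITF, was at 19.5 and 14.5 against 9.69 and 6.01 FPKM (1.13, adjusted p = 0.0387). CD44, the hyaluronan receptor, fell from 391 and 362 FPKM with the precursor to 193 and 195 FPKM with the hormone (-0.96, adjusted p = 0.0156), and VIM, vimentin, from 3459 and 3149 to 2395 and 2232 FPKM (-0.51, adjusted p = 0.0280).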
